A study of Mus musculus with 30 samples.

Results

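Transcripts of 9 genes of blood coagulation, fibrinolysis and nitric oxide synthesis were followed in mouse brain endothelial cells (ECs) before and after culture. The genes were Vwf, Thbd, Procr, F3, Tfpi, Plat, Plau, Plaur and Nos3. They were taken as a list of names and are 9 of the 21820 protein-coding genes in the transcript tables, each matched to 1 gene identifier. All 9 passed the filter on low counts in every comparison.

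The 14 RNA-seq libraries fall into 4 groups. Acutely isolated ECs (2 libraries) were sorted as GFP-positive cells from the brains of adult Tie2-GFP mice, in which the endothelial Tie2 promoter drives GFP, and GFP-negative cells (2 libraries) came from the same kind of sort. The study made its adult brain EC data by combining those of cerebrum and cerebellum. WT cultures (6 libraries) were brain ECs of adult mice kept for 8 days, with puromycin selection for ECs. By the study's methods, replicates 1 and 2 came from C57BL/6J mice by isolation method A, which uses papain, and replicates 3 to 6 came from Ctnnb1flex3/+;Tie2-GFP mice without Cre by method B, which uses a Dounce homogenizer, collagenase and dispase. Stabilized cultures (4 libraries) came from Ctnnb1flex3/+;Pdgfb-CreER;Tie2-GFP mice, replicates 1 and 2 by method A and replicates 3 and 4 by method B. A legend of the study divides the WT cultures between the methods differently. The methods text, which matches the genotype labels, was followed here, and each result by isolation method rests on it. In the stabilized mice the EC-restricted Pdgfb-CreER removes exon 3 of Ctnnb1 and so stabilizes beta-catenin. The Ctnnb1flex3/+ mice, with and without Cre, had received 4-hydroxytamoxifen as pups. Brains of several mice were pooled and each experiment gave 2 wells, so that the 6 WT libraries are 3 experiments. The p-values therefore measure a spread that is in part between wells. Where 1 WT experiment is taken alone, the spread of its cultures is between 2 wells only. Acutely isolated libraries were read as single reads of 75 cycles, WT replicates 3 and 4 as read pairs of 150 cycles and the other cultures as pairs of 36 cycles. Read layout and culture therefore cannot be told apart in any comparison of cultured with acutely isolated ECs. The study trimmed the reads of 1 sample of 150 cycles to the other layouts and reports that gene levels stayed highly correlated. It gives no values of that check for single genes. By the study's methods, another facility prepared the RNA-seq libraries of WT replicates 3 and 4. For these 2 libraries experiment, facility and read length cannot be told apart. ATAC-seq, which marks open chromatin, had 2 libraries for acutely isolated ECs, 6 for WT and 2 for stabilized cultures.

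ECs face the blood and carry both the brakes and the triggers of clotting. Vwf encodes von Willebrand factor, which ECs store in Weibel-Palade bodies and which tethers platelets. Thbd (thrombomodulin) turns thrombin into an activator of protein C, Procr is the receptor that presents protein C to that complex, and Tfpi is the inhibitor of the tissue factor pathway. F3 encodes tissue factor, which starts clotting with factor VII and which in the brain is made mainly outside the endothelium, in astrocytes and in cells around vessels. Plat (tissue-type) and Plau (urokinase-type) encode the activators that turn plasminogen into the clot-dissolving protease plasmin, and Plaur is the urokinase receptor. Nos3 is the endothelial nitric oxide synthase, whose product relaxes smooth muscle and restrains platelets. Klf2 and Klf4 are transcription factors that flow induces in ECs and that are known to raise Nos3 and Thbd.

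The deposited tables gave 24284843 to 94686456 estimated counts per library. Protein-coding genes held from 36.2% to 94.8% of the TPM that the authors computed, so a level is given here as scaled TPM, which is that TPM over protein-coding genes alone, scaled with TMM factors over the 14 libraries. It is corrected for transcript length, so that levels of different genes can be compared. The 8 endothelial markers summed to 4990 to 6313 scaled TPM in acutely isolated ECs and 15.4 to 50.4 in GFP-negative cells. Their sum was 3423 to 10590 in WT cultures and 5443 to 8945 in stabilized cultures. Of the 8, 1 was called higher and 3 lower in WT cultures than in acutely isolated ECs. Mean scaled TPM went from 348 to 2732 for Emcn, 770 to 1083 for Egfl7, 378 to 436 for Cdh5 and 950 to 957 for Pecam1. It went from 2011 to 718 for Cldn5, 461 to 68.4 for Kdr, 420 to 45.9 for Tek and 314 to 130 for Erg. The 4 smooth muscle markers (Acta2, Tagln, Myh11 and Cnn1) summed to 462 to 732 in acutely isolated ECs, 988 to 7552 in WT cultures, 661 to 6496 in stabilized cultures and 9299 to 9999 in GFP-negative cells. Between acutely isolated ECs and WT cultures 3 of these markers were called higher and 1 lower. Mean scaled TPM went from 278 to 969.5 for Acta2, from 252 to 2557 for Tagln and from 7.10 to 68.2 for Cnn1, whereas Myh11 went from 60.4 to 3.55. The 6 pericyte markers summed to 1089 to 1653 in acutely isolated ECs and 5.72 to 25.2 in WT cultures, and the 4 erythrocyte markers to 14920 to 67870 and at most 1.62. In bulk RNA fewer cells of a type and less RNA per cell cannot be told apart. Sums over a gene cannot show the loss of exon 3, and Ctnnb1 itself did not pass the test between stabilized and WT cultures (log2 fold change 0.07, SE 0.28, adjusted p = 0.936, edgeR).

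In acutely isolated ECs the order of the 9 genes by mean scaled TPM was Thbd (122), Vwf (119.5), Nos3 (115), Plat (94.96), Tfpi (69.1), Procr (31.4), Plaur (8.91), Plau (0.774) and F3 (0.211). The first 4 overlapped their neighbours between libraries, and each of the others was separate from the next. In WT cultures the order was led by Procr (350) and Plaur (316), followed by Vwf (134.5), Thbd (120), Tfpi (111.6), F3 (101.5), Plat (92.0), Nos3 (81.8) and Plau (35.7), and every gene overlapped the next over the 6 libraries. In GFP-negative cells F3 stood first with 78.5 and Nos3 last with 0.354.

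**Figure D1:**
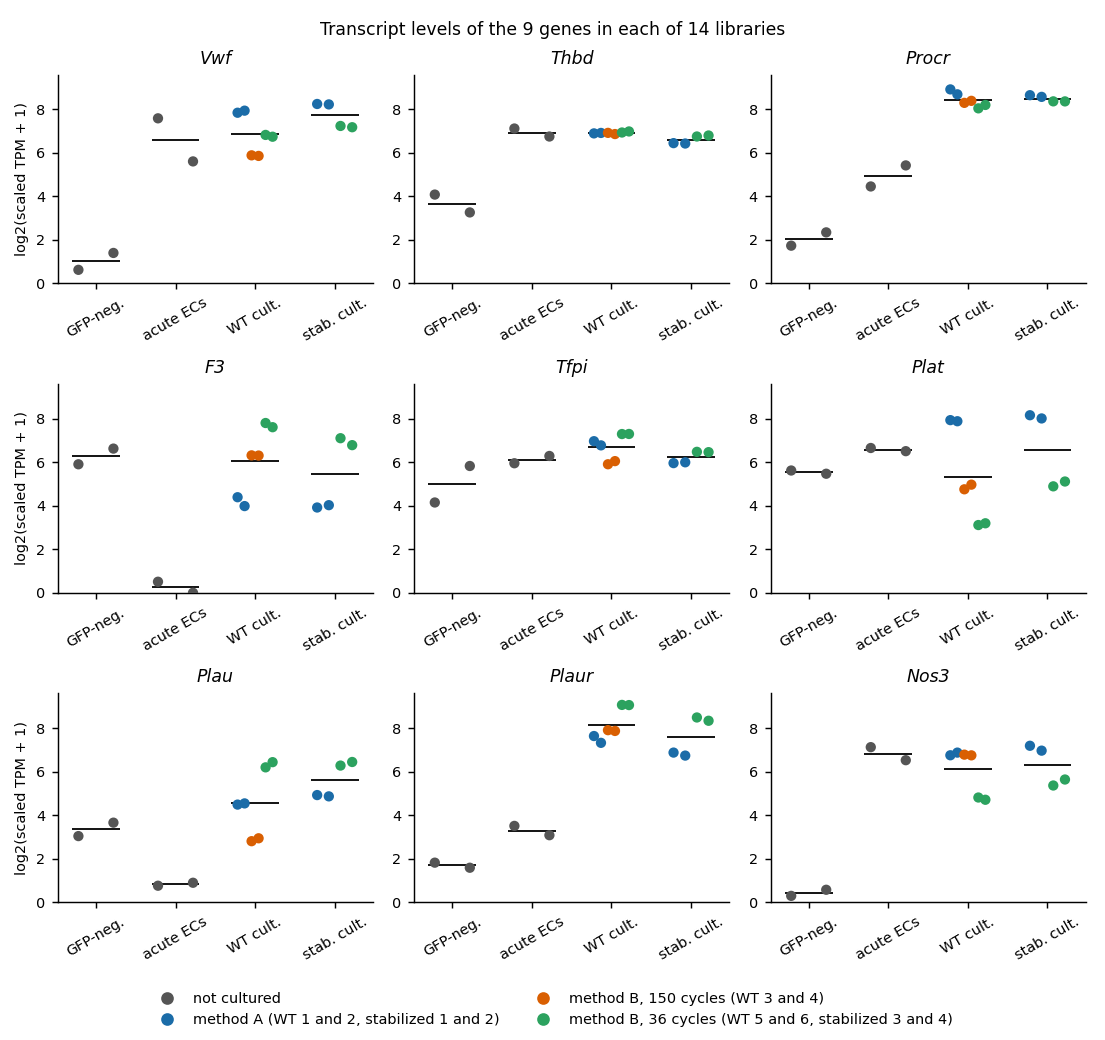
Level of each gene as log2(scaled TPM + 1) in GFP-negative cells, acutely isolated ECs, WT cultures and stabilized cultures, with 1 point per library and a line at the group mean; colours mark the isolation method and the number of read cycles. F3, Plau, Plaur and Procr lie above both acutely isolated libraries in every culture, and Plat spreads from 7.66 to 243.9 scaled TPM among the WT cultures.

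A gene was called where edgeR's quasi-likelihood test gave a Benjamini-Hochberg adjusted p under 0.05, where the log2 fold change was over 1 in size, and where every library of the higher group reached 5 TPM. Between WT cultures and acutely isolated ECs, 13784 genes were tested, of which 13.5% were called higher and 10.2% lower in culture. Of the 9 genes, 4 were called higher (F3, Plaur, Plau and Procr), 1 was called lower (Thbd) and 4 were not called (Vwf, Tfpi, Plat and Nos3). Their median log2 fold change was 0.93, and that of all genes tested was 0.10. The groups did not overlap in scaled TPM for 4 of the 9 genes, F3, Plaur, Plau and Procr, against 54.3% of all genes tested. Between acutely isolated ECs and GFP-negative cells, 15102 genes were tested, of which 8.30% were called higher and 7.56% lower in ECs. Here 5 of the 9 genes were called higher (Nos3, Vwf, Thbd, Procr and Tfpi) and 1 lower (F3), with a median of 1.63 against -0.06 for all genes. Scaled TPM did not overlap for 9 of the 9 genes, against 62.8% of all. Between stabilized and WT cultures none of the 9 genes was called, nor any of 12958 genes tested.

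Vwf (chr6:125546774-125686679 on GRCm38, plus strand), the platelet tether, was an EC transcript before culture and had a similar mean in culture. It measured 191 and 47.7 scaled TPM in the 2 acutely isolated libraries and 0.540 and 1.64 in the 2 GFP-negative libraries. The 6 WT cultures ranged from 57.05 to 244.5 with a median of 109. Every acutely isolated library lay far above both GFP-negative ones, and the range of the cultures enclosed the higher acutely isolated library and reached nearly down to the lower. Against GFP-negative cells the log2 fold change was 6.69 (SE 0.54, adjusted p = 0.00173, edgeR). Culture gave 0.10 (SE 0.64, adjusted p = 0.912, edgeR). The 3 WT experiments differed by 4.11-fold, with means of 237 for replicates 1 and 2, 57.6 for replicates 3 and 4 and 109 for replicates 5 and 6, whereas wells of an experiment differed by at most 1.07-fold. Against the acutely isolated ECs, the experiments gave log2 fold changes of 0.84, -1.34 and 0.05. In acutely isolated replicate 1, 57.8% of the gene's TPM was assigned to Vwf-210, a transcript annotated for nonsense-mediated decay that had none in replicate 2. In estimated counts these 2 libraries held 40790 and 21100. The 6 platelet and megakaryocyte markers, of cells that also make this factor, summed to 10.05 to 39.1 scaled TPM over the 2 acutely isolated libraries and 0.981 to 3.06 in the WT cultures, and their part was not tested.

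Among 11 genes of von Willebrand factor handling and Weibel-Palade bodies, 2 were called higher in culture and 1 lower, beside 13.5% and 10.2% of all genes. Angpt2, an angiopoietin stored in these bodies, rose by 5.28 (log2, SE 0.62, adjusted p = 0.000367, edgeR), and Cd63, their membrane tetraspanin, rose by 3.94 (SE 1.38, adjusted p = 0.0433). The list had a median of 0.75. The same shares of all genes stand beside the culture counts of each pathway list below, and no list was tested for enrichment.

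Thbd (chr2:148404466-148408188 on GRCm38, minus strand), thrombomodulin, had the most even level of the 9 genes among the WT cultures. It measured 138 and 107 scaled TPM in the acutely isolated ECs, 15.9 and 8.59 in the GFP-negative cells, and 115.5 to 125.6 with a median of 119.8 in the WT cultures. The 3 WT experiments differed by no more than 1.05-fold, and all 6 WT cultures lay between the 2 acutely isolated libraries. Against GFP-negative cells Thbd was higher by 3.50 (log2, SE 0.43, adjusted p = 0.00359, edgeR). On counts, the culture effect was -1.06 (log2, SE 0.26, adjusted p = 0.00951, edgeR). With an offset for transcript length the value was -0.09 (SE 0.27, adjusted p = 0.805), and the call was also lost under scaling by library size (-0.83) and in 2 of the 3 WT experiments taken alone (-0.99 in each), and without acutely isolated replicate 1 (-0.82, adjusted p = 0.0612). The call of a lower Thbd in culture therefore depends on the setting, although each culture value given here was below 0. The offset uses the effective length that Salmon estimated in each library. Thbd-201 held 100% of the gene's TPM in every group, so the offset does not reflect a change of transcript.

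Procr (chr2:155751117-155755471 on GRCm38, plus strand), the protein C receptor, rose in every culture. It measured 20.9 and 41.9 scaled TPM in the acutely isolated ECs and 2.33 and 4.08 in the GFP-negative cells, whereas the WT cultures ranged from 263 to 482 with a median of 324. The lowest culture was 6.28-fold above the higher acutely isolated library, and no library of one group reached the other. The log2 fold change of culture was 3.67 (SE 0.40, adjusted p = 0.000278, edgeR). ECs exceeded GFP-negative cells by 3.42 (SE 0.62, adjusted p = 0.0114), a call that was lost without GFP-negative replicate 2 (adjusted p = 0.0567). The 3 WT experiments differed by 1.61-fold, and the culture call was kept in each of them alone.

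Tfpi (chr2:84432855-84476775 on GRCm38, minus strand), the inhibitor of the factor VII and tissue factor complex, was present in all groups. It measured 61.0 and 77.2 scaled TPM in the acutely isolated ECs, 16.8 and 55.8 in the GFP-negative cells and 59.1 to 156.6 with a median of 116 in the WT cultures. WT replicates 3 and 4 lay near the level of the acutely isolated ECs and the other 4 cultures lay above it. The log2 fold change of culture was 0.93 (SE 0.40, adjusted p = 0.0832, edgeR), which was not called. Without the 150-cycle cultures it was 1.14 (SE 0.32, adjusted p = 0.0256). The call against GFP-negative cells (1.59, SE 0.45, adjusted p = 0.0412) was lost when any of the 4 libraries was left out (adjusted p from 0.0830 to 0.263).

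The transcripts that carried Tfpi differed more than its sum. In the acutely isolated ECs Tfpi-201 held 89.3% and 90.8% of the gene's TPM. In the WT cultures it held 29.7% to 51.0% and in the stabilized cultures 17.6% to 37.5%, below both acutely isolated libraries in all 10 cultures. The rest was spread over Tfpi-205 (mean 19.5% in WT cultures), Tfpi-210 (14.3%), Tfpi-207 (11.3%) and Tfpi-203 (8.00%). Nos3 and Plaur also differed in their main transcript, as the plot of transcript shares shows. Nos3-201 and Nos3-202 shared the acutely isolated ECs with means of 51.0% and 49.0%, whereas Nos3-201 held 89.2% to 100% in the WT cultures. Plaur-201 held 92.1% to 97.6% in the WT cultures and 0% and 54.9% in the acutely isolated ECs, where Plaur had only 245 and 139 estimated counts. Read length and layout differ between these groups, and their part in the shares was not tested.

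**Figure D2:**
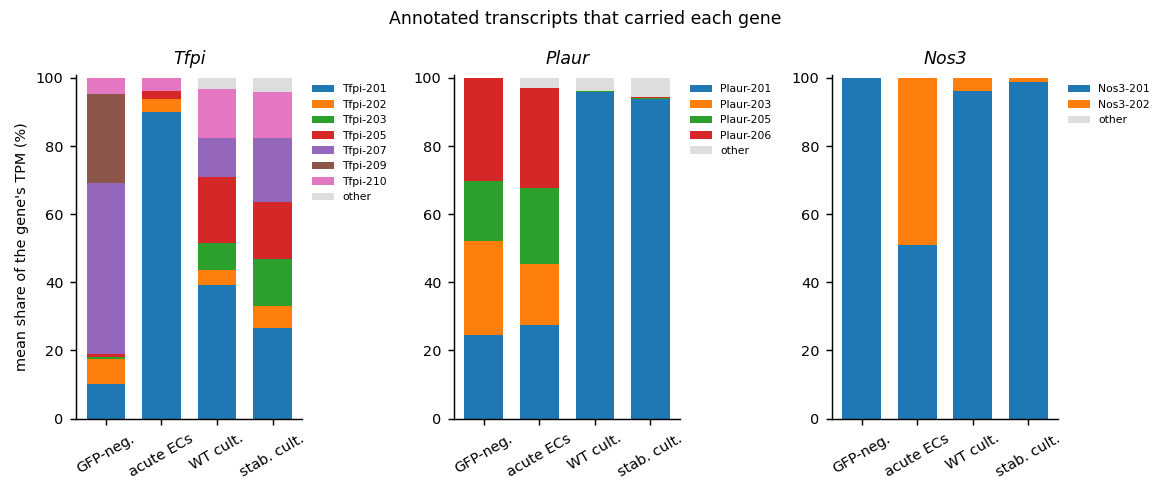
Mean share of the TPM of Tfpi, Plaur and Nos3 that Salmon assigned to each annotated transcript (y axis, percent) in the 4 groups (x axis); transcripts with at most 5% in every group are summed as other. Tfpi-201 goes from a mean of 90.1% in acutely isolated ECs to 39.1% in WT cultures, while Nos3-201 and Plaur-201 dominate in culture with 96.1% and 95.8%.

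The other anticoagulant genes gave 1 call among 5 tested. Tfpi2, a relative of Tfpi that inhibits several serine proteases, rose by 3.85 (log2, SE 0.78, adjusted p = 0.00441, edgeR), from a mean of 1.65 to 23.6 scaled TPM. Pros1, the protein S cofactor of activated protein C, gave 0.43 (SE 0.45, adjusted p = 0.459) on counts. Its mean went the other way, at 195 in WT cultures against 240 scaled TPM in acutely isolated ECs. Against GFP-negative cells Pros1 was higher in ECs by 2.47 (adjusted p = 0.00515).

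F3 (chr3:121723537-121735048 on GRCm38, plus strand), tissue factor, was almost absent from acutely isolated ECs and present in all cultures. The 2 acutely isolated libraries held 27 and 0 estimated counts, or 0.422 and 0 scaled TPM, and a count of 0 allows up to 3 counts. The GFP-negative cells measured 59.0 and 97.9 scaled TPM. The WT cultures ranged from 14.8 to 222 with a median of 78.5, so that the lowest culture was 35.1-fold above the higher acutely isolated library. The log2 fold change of culture was 8.74 (SE 1.96, adjusted p = 0.00694, edgeR), and against GFP-negative cells that of acutely isolated ECs was -8.39 (SE 1.49, adjusted p = 0.0107). Both sizes rest on the acutely isolated library with 27 counts. Without it (replicate 1) they were 14.83 and -15.07, which are no bounds, since the remaining library is at 0, and without replicate 2 they were 7.77 and -7.45. The calls were kept in each case. The direction was the same in each WT experiment alone. Size differed between experiments, with means of 17.4 for WT replicates 1 and 2, 78.5 for replicates 3 and 4 and 209 for replicates 5 and 6.

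The smooth muscle markers moved with F3 among the cultures. Their sum was 988 and 1446 scaled TPM in WT replicates 1 and 2, 2141 and 2212 in replicates 3 and 4, and 7251 and 7552 in replicates 5 and 6. In the stabilized cultures it was 661 and 731.5 in replicates 1 and 2 (F3 at 14.1 and 15.3) and 6065 and 6496 in replicates 3 and 4 (F3 at 109 and 137). The order of the 5 culture experiments was the same by mean F3 and by mean sum. All 4 markers were detected in the cultures, where Tagln and Acta2 had the highest means. Myh11 went the other way from acutely isolated ECs to WT cultures, from a mean of 60.4 to 3.55, and was called lower. The GFP-negative cells had the highest sum and less F3 than WT replicates 5 and 6. The 5 astrocyte markers summed to 1762 to 2715 in the GFP-negative cells, 163.5 to 1462 in the acutely isolated ECs and 8.66 to 46.5 in the WT cultures. In the WT cultures Gja1 (mean 25.4) and Aldh1l1 (2.13) were highest. Aqp4, Gfap and Slc1a2 were near 0 there (means of 0.00259, 0.026 and 0.0556). The part of these cells or genes in the level of F3 was not tested.

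The F3 promoter is shown because an ATAC-seq region over the start of this gene was weaker in acutely isolated ECs than in any culture. Promoter sequences run from 250 bases before to 50 bases after the start in RefSeq on GRCm38, read 5′ to 3′ on the strand of the gene, and all 3 shown here lie on the plus strand. Capitals mark matches on either strand to AP-1 (TGANTCA), the SP box (GGGCGG), the KLF box (CACACCC), TEAD (GGAATG), TCF/LEF (CTTTGA) or ETS (CCGGAA), of which SP and KLF boxes can be bound by factors of 1 family.

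F3 promoter, chr3:121723287-121723586: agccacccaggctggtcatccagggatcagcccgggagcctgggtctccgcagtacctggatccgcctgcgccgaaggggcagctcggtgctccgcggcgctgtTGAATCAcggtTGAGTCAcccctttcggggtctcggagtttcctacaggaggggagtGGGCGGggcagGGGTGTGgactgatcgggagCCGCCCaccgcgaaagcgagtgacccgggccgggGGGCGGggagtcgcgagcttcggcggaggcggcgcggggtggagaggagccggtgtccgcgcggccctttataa

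The F3 window held 2 AP-1 matches, TGAATCA at base -146 and TGAGTCA at base -135 from the start, beside 3 SP boxes and 1 KLF box. AP-1 letters occur in 7.81% of 32851 RefSeq promoters of this length, SP boxes in 35.7% and KLF boxes in 7.95%. The region around this window (1067 bases) had a fold enrichment of 2.99 and no peak in the 2 acutely isolated libraries. It was open in all 6 WT cultures with 7.35 to 15.6, and in both stabilized cultures with 10.1 and 10.5.

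Of 17 other coagulation factors and thrombin receptors, 7 were expressed enough to be tested and 1 was called, F2r, the main thrombin receptor of ECs. F2r rose in culture by 2.49 on counts (log2, SE 0.48, adjusted p = 0.00356, edgeR). Its mean was 328 against 25.7 scaled TPM, a larger change than on counts. ECs exceeded GFP-negative cells in F2r by 2.11 (adjusted p = 0.0181). F2rl3, another thrombin receptor, gave 6.41 (SE 1.69, adjusted p = 0.0139) in culture but missed the TPM minimum. F5, the cofactor of factor X, gave -4.55 (SE 0.70, adjusted p = 0.00122) and missed it too.

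Plat (chr8:22757727-22782844 on GRCm38, plus strand), the tissue-type plasminogen activator, differed most between WT experiments. It measured 99.8 and 90.1 scaled TPM in the acutely isolated ECs and 48.2 and 43.4 in the GFP-negative cells. The WT cultures measured 244 and 235.5 in replicates 1 and 2, 26.0 and 30.3 in replicates 3 and 4, and 7.66 and 8.16 in replicates 5 and 6. The first pair lay above both acutely isolated libraries and the other 4 below them, a 30.3-fold range between experiments against at most 1.17-fold between wells. The log2 fold change of culture was -0.06 (SE 1.25, adjusted p = 0.974, edgeR) over all 6 WT cultures. Each experiment alone passed the test, replicates 1 and 2 with 1.31 (SE 0.20, adjusted p = 0.00883), replicates 3 and 4 with -1.65 (SE 0.22, adjusted p = 0.00496) and replicates 5 and 6 with -3.43 (SE 0.21, adjusted p = 0.00278). The spread of the cultures in each of these fits is between 2 wells and not between experiments. Among the WT cultures, replicates 1 and 2 differ from the others in isolation method and in mouse line, and these cannot be told apart there. The stabilized cultures, all of 1 mouse line, had Plat means of 271 scaled TPM by method A and 31.2 by method B. Each of these means is 1 experiment, so method and experiment cannot be told apart, and the part of the method was not tested.

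Plat was the only one of the 9 genes with regions that were open in both acutely isolated libraries and in none of the 6 WT cultures, and the 2 regions are shown for that reason. Region sequences are 200 bases around the highest point of the strongest peak in the region, on the plus strand of GRCm38. The centre named with each sequence is that of the whole region, which the 200 bases need not hold.

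Plat, centre at base -4480 from the start, chr8:22753068-22753267: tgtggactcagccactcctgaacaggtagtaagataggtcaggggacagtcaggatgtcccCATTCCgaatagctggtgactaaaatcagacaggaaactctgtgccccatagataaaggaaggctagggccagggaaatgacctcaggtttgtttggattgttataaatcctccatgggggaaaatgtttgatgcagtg

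Plat, centre at base 5014 from the start, chr8:22762456-22762655: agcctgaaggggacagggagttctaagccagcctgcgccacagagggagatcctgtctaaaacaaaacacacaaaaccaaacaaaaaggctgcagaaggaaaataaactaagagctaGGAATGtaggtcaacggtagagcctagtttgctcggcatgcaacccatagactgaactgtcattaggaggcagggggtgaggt

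The capitals in both are TEAD letters, which occur in 17.1% of all 125868 region windows and in 10.2% of the windows lost in culture, and neither window held AP-1 letters. The upstream region had fold enrichments of 3.33 and 5.00 in acutely isolated ECs, and 2.97 and 2.51 in the 2 stabilized cultures, which were made by method B. The other had 4.09 and 2.60 in acutely isolated ECs and no peak in any culture. The region over the Plat start was open in all 10 libraries, from 7.52 to 19.4, with the highest values in ATAC-seq replicates 5 and 6 of the WT cultures.

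Plau (chr14:20836660-20843385 on GRCm38, plus strand), the urokinase-type activator, was low in acutely isolated ECs and rose in culture. The acutely isolated libraries held 76 and 65 estimated counts, or 0.690 and 0.857 scaled TPM, and the GFP-negative ones measured 7.21 and 11.6. The WT cultures measured 5.98 to 85.6 with a median of 21.8. Every culture lay at least 6.98-fold above the higher acutely isolated library, and WT replicates 3 and 4 lay below the GFP-negative cells. The log2 fold change was 5.23 (SE 1.36, adjusted p = 0.0132, edgeR), and without 1 or the other acutely isolated library the adjusted p was 0.0898 or 0.0812. Against GFP-negative cells Plau gave -3.14 (SE 0.67, adjusted p = 0.0181) and missed the TPM minimum.

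Plaur (chr7:24462484-24475968 on GRCm38, plus strand), the urokinase receptor, rose in all cultures. It measured 10.4 and 7.45 scaled TPM in the acutely isolated ECs, 2.52 and 1.997 in the GFP-negative cells and 159 to 536 with a median of 236 in the WT cultures. The lowest culture was 15.4-fold above the higher acutely isolated library. The log2 fold change of culture was 6.13 (SE 0.80, adjusted p = 0.000626, edgeR), and it was called in each WT experiment alone. The 4 markers of perivascular macrophages, which also make this receptor, summed to 0.285 to 0.638 scaled TPM over the 2 acutely isolated libraries and 1.73 to 8.05 in WT cultures. Among them Lyve1 went from a mean of 0.00662 to 4.00, whereas in WT cultures Mrc1 (0.148) and Cd163 (0.0119) were near 0 and F13a1 was at 0. Their part was not tested. The difference from GFP-negative cells, 1.63 (SE 0.83, adjusted p = 0.195), was not called.

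The promoters of Plaur and Procr and the regions that opened near Plaur and Plau are shown because these genes rose in culture.

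Plaur promoter, chr7:24462233-24462532: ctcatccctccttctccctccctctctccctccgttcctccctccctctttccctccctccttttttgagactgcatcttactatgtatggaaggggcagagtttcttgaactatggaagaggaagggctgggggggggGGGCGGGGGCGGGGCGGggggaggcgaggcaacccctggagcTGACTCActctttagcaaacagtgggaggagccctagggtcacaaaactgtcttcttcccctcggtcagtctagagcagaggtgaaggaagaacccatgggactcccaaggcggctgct

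Procr promoter, chr2:155750967-155751266: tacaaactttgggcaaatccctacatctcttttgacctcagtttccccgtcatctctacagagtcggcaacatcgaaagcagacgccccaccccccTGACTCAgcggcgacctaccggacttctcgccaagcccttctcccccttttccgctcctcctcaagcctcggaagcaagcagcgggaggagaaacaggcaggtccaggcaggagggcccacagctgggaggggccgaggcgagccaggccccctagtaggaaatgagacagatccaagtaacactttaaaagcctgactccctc

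Plaur, centre at base 7932 from the start, chr7:24470457-24470656: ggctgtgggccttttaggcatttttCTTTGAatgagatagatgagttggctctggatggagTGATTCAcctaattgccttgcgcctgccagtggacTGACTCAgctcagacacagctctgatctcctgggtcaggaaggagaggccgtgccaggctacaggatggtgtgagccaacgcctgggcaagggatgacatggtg

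Plau, centre at base -2264 from the start, chr14:20834257-20834456: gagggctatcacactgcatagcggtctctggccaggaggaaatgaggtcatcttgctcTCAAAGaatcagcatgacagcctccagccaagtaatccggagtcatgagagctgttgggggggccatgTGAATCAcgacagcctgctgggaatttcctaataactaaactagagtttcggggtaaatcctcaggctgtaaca

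The Plaur promoter held AP-1 letters (TGACTCA) at base -69 and 3 SP boxes, and the Procr promoter held TGACTCA at base -154. The table of promoters held 4 of the 9 genes, and AP-1 letters were in F3, Plaur and Procr and in neither of the 2 Tfpi promoters. The Plaur region held 2 AP-1 matches and 1 TCF/LEF match, and the Plau region held 1 of each. The region gained upstream of Procr, centred at base -8730, held no match to any of these motifs. Of the 6 regions gained near the 9 genes, 3 (50.0%) held AP-1 letters and 2 (33.3%) held TCF/LEF letters. AP-1 letters occur in 25.1% of all region windows, in 49.2% of those gained in culture and in 3.54% of those lost, and TCF/LEF letters in 13.3%, 11.7% and 30.7%. A match is a match of letters, and binding was not measured.

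The rest of the plasminogen system gave 3 genes higher and 2 lower in culture among 8 tested, with a median log2 fold change of 2.82. Anxa2 and S100a10, the 2 chains of a plasminogen receptor, rose by 4.97 (SE 0.55, adjusted p = 0.00029, edgeR) and 4.78 (SE 0.50, adjusted p = 0.000219). Serpine2, a protease inhibitor of thrombin and urokinase, fell by 1.86 (SE 0.35, adjusted p = 0.00306), and Lrp1, a scavenger receptor that clears complexes of the activators, fell by 1.73 (SE 0.55, adjusted p = 0.0301) on counts, and its mean was 3.47 against 58.6 scaled TPM.

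**Figure D3:**
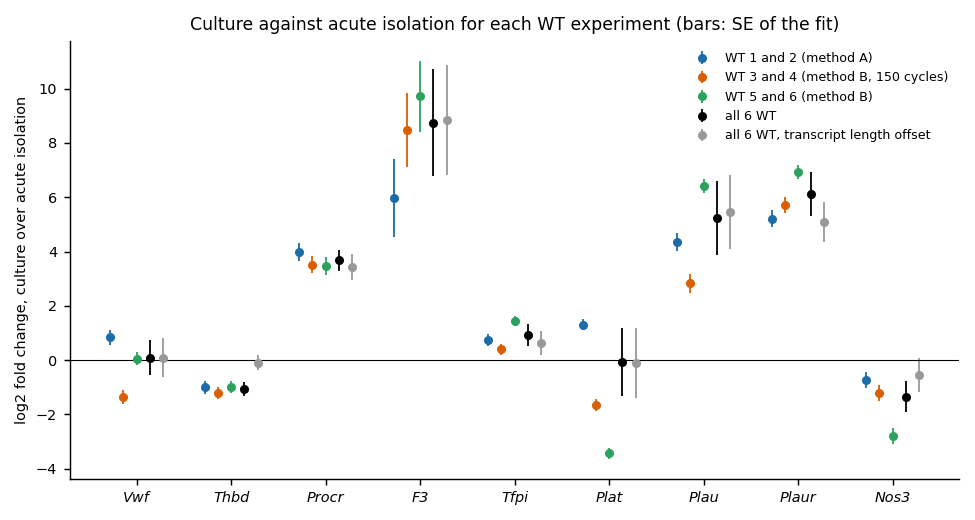
Log2 fold change of WT cultures over acutely isolated ECs for each gene (x axis), with each pair of WT wells taken alone, all 6 WT cultures, and all 6 with an offset for transcript length; bars are the SE of the edgeR fit. Plat gives 1.31, -1.65 and -3.43 in the 3 experiments, whereas Procr, F3, Plau and Plaur lie above 0 in every setting drawn.

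Nos3 (chr5:24364810-24384474 on GRCm38, plus strand), the endothelial nitric oxide synthase, marked ECs and was lower in 1 WT experiment. It measured 139 and 91.2 scaled TPM in the acutely isolated ECs and 0.223 and 0.485 in the GFP-negative cells. In the WT cultures it was 107 and 116 in replicates 1 and 2, 109 and 107 in replicates 3 and 4, and 27.1 and 25.1 in replicates 5 and 6. The first 4 cultures lay between the acutely isolated libraries and the last 2 below both. Replicates 3 to 6 share method B and the mouse line, but the libraries of replicates 3 and 4 came from another facility. ECs exceeded GFP-negative cells by 8.33 (log2, SE 0.63, adjusted p = 0.00164, edgeR). Culture gave -1.35 (SE 0.57, adjusted p = 0.0823), and -0.55 with an offset for transcript length. Replicates 5 and 6 alone gave -2.80 (SE 0.30, adjusted p = 0.00553).

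Of 18 other genes of nitric oxide synthesis and signaling tested, 2 were called higher and 6 lower in culture, with a median of -0.75. Cav1, whose product binds and restrains the synthase in caveolae, rose by 3.15 (SE 0.49, adjusted p = 0.00124, edgeR), to a mean of 4216 scaled TPM. Ddah1, which breaks down an endogenous inhibitor of the synthase, rose by 1.43 (SE 0.47, adjusted p = 0.0359). Among those that fell, Nostrin, which traffics the synthase, changed by -3.66 (SE 1.19, adjusted p = 0.0328). Pde5a, the phosphodiesterase of cyclic GMP, changed by -4.67 (SE 0.59, adjusted p = 0.000548). Nos1, the neuronal synthase, changed by -8.33 (SE 0.78, adjusted p = 0.00014) on counts, with a mean of 0.0603 against 104 scaled TPM. That mean of 104 came from acutely isolated libraries at 16.7 and 190.5. Against GFP-negative cells Nos1 was not called (0.43, SE 0.68, adjusted p = 0.679, edgeR). Gucy1b1, a chain of the nitric oxide receptor (-3.71), Slc7a1, the arginine transporter (-3.47), and Spr, an enzyme of cofactor synthesis (-1.27), also fell. Gch1, the first enzyme of cofactor synthesis, gave 0.71 (SE 0.36, adjusted p = 0.138) on counts, and its mean was 37.9 against 10.7 scaled TPM. Mural cells are known to express Pde5a and Gucy1b1. The pericyte marker sum went in the same comparison from at least 1089 to at most 25.2 scaled TPM, and its part was not tested.

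The 2 flow-responsive factors fell together. Klf2 measured 264 and 184 scaled TPM in acutely isolated ECs and 60.6 to 85.7 with a median of 69.4 in WT cultures, and changed by -2.35 (log2, SE 0.25, adjusted p = 0.000247, edgeR). Klf4 measured 282 and 305.5, and 3.11 to 16.6 with a median of 6.42, with -6.09 (SE 0.68, adjusted p = 0.000291). No culture reached an acutely isolated library for either gene. Among the prostacyclin and nucleotide genes, 2 of 5 rose, Ptgs2 (4.65, SE 1.27, adjusted p = 0.0164) and Ptgis (mean of 91.3 against 4.32 scaled TPM, adjusted p = 0.000138), which make prostacyclin, a platelet inhibitor. Entpd1, an ectoenzyme that degrades ADP, fell by 1.07 (SE 0.35, adjusted p = 0.0355) on counts, and its mean was 38.0 against 371 scaled TPM.

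Before culture, genes of the pathway lists were called in both directions between ECs and GFP-negative cells, beside 8.30% of all genes higher and 7.56% lower. The lists were not tested for enrichment. Nostrin (7.37), Slc7a1 (5.95), Cav1 (3.10) and Spr (2.02) were called higher in ECs and Gucy1a1 (-3.34), Gucy1b1 (-2.15), Prkg1 (-1.65) and Pde5a (-1.04), which act in the cells that receive nitric oxide, were called lower, among 19 nitric oxide genes tested. Mmrn2, an endothelial matrix protein (8.04), was higher and Cd63 (-3.65) lower among 9 genes of von Willebrand factor handling. In the plasminogen system Anxa2 (1.59) was higher and Lrp1 (-3.86) and Serpini1 (-3.85), a neuronal inhibitor of Plat, lower among 8. Klf2 (4.31) and Klf4 (4.00) were higher, and Ptgis (-2.71) was lower.

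None of the 9 genes passed the threshold between stabilized and WT cultures. edgeR called none of 12958 genes, with 10.4% at an unadjusted p under 0.05, and 1 of the 9 genes, Tfpi, reached that level (log2 fold change -0.63, SE 0.28, adjusted p = 0.475). DESeq2 called 15 genes higher and 3 lower, with none of the 9. The log2 fold changes were 0.95 (SE 0.47) for Vwf, 0.74 (SE 1.06) for Plat, 0.61 (SE 0.76) for Plau, 0.27 (SE 0.51) for Nos3 and 0.11 (SE 0.18) for Procr, and -0.30 (SE 0.15) for Thbd, -0.48 (SE 0.51) for Plaur and -0.65 (SE 0.90) for F3. Only Thbd did not overlap between the groups, with 86.2, 85.2, 107 and 110 scaled TPM in the stabilized cultures and at least 115.5 in the WT cultures, against 4.34% of all genes. No gene of the pathway lists was called.

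Within an isolation method the cultures were tighter, but each method then compared 1 stabilized with 1 WT experiment of 2 wells. The p-values below measure the spread between wells only, and genotype and experiment cannot be told apart. For method A, mouse line differs as well. At an adjusted p under 0.05 stood 5 of the 9 genes for method A and 7 for method B, against 56.0% of 12848 and 37.1% of 12835 genes tested, so that the share of the 9 genes in method A was that of all genes. Vwf was higher and Tfpi and Plaur were lower in both. Vwf measured 303 and 299 in stabilized against 229 and 244.5 scaled TPM in WT wells by method A (log2 fold change 0.58, adjusted p = 0.00568, edgeR), and 150 and 144 against 112 and 106 by method B (0.46, adjusted p = 0.00323). Tfpi gave -0.82 (adjusted p = 0.00095) and -0.85 (adjusted p = 0.000599), from 61.3 and 62.9 against 124 and 109, and 88.2 and 87.3 against 156.2 and 156.6. Plaur gave -0.68 (adjusted p = 0.00214) and -0.64 (adjusted p = 0.00193). The WT cultures of 150 cycles were another WT experiment, with libraries from another facility. They stood below the stabilized wells of method B for Vwf (58.1 and 57.05), Tfpi (59.1 and 65.3) and Plaur (239 and 233).

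Plat was the only one of the 9 genes called within a method. Of all genes, method A called 5.39% higher and 0.918% lower in stabilized cultures, and method B 1.08% and 0.280%. By method B it measured 28.7 and 33.7 scaled TPM in stabilized and 7.66 and 8.16 in WT wells (log2 fold change 1.96, SE 0.10, adjusted p = 0.000472, edgeR), and by method A 285 and 257.5 against 244 and 235.5 (0.19, SE 0.07, adjusted p = 0.0724). The 2 WT wells of 150 cycles, also of method B but with libraries from another facility, measured 26.0 and 30.3. They thus lay at the level of the stabilized wells. For Nos3, method B gave 40.2 and 48.8 against 27.1 and 25.1 (0.79, SE 0.09, adjusted p = 0.00257), and the WT wells of 150 cycles lay above both groups at 109 and 107. The interaction of stabilization with method passed an adjusted p of 0.05 for 6 of the 9 genes, against 49.6% of 13356 genes tested. The call for Plat within method B therefore rests on 1 of the 2 WT experiments of method B.

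**Figure D4:**
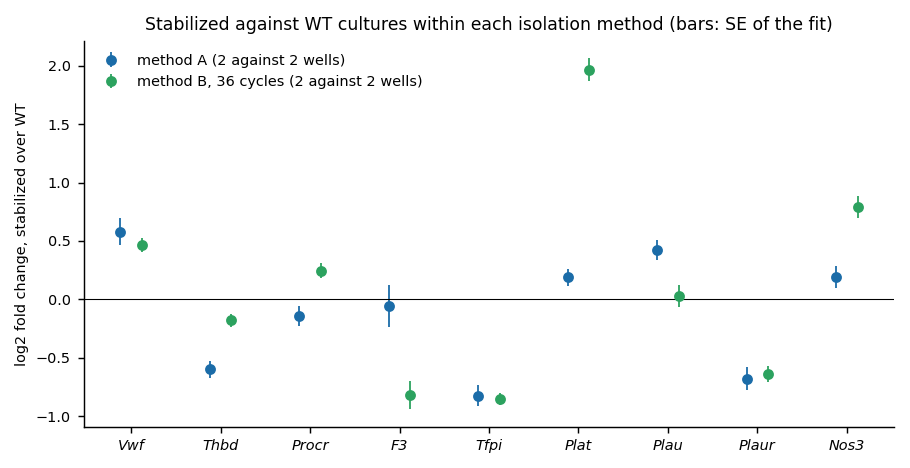
Log2 fold change of stabilized over WT cultures for each gene within method A and within method B of 36 cycles, 2 against 2 wells each; bars are the SE of the edgeR fit. Vwf lies above 0 and Tfpi and Plaur below 0 in both methods, whereas Plat gives 0.19 and 1.96.

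Open chromatin was described over 125868 regions merged from the peaks of 10 ATAC-seq libraries, of which 72 lay between 10000 bases before the start and 1000 bases past the end of 1 of the 9 genes. Vwf, the longest gene, had 26 of them, Tfpi 10, Plat and Nos3 8 each, Plaur 6, Procr 5, Plau 4, Thbd 3 and F3 2. In all, 14 of the 72 were open in both acutely isolated and all 6 WT libraries, against 13.4% of all regions, 6 were gained in culture against 8.11%, and 2 were lost against 2.92%. Gained means open in no acutely isolated and all WT libraries. Regions were compared as called or not, with no test, and the number of peaks per library ranged from 31601 to 98603, with the fewest in acutely isolated ECs and WT replicate 2. Without WT replicate 2 the count of gained regions near the 9 genes was 14. The share of all regions under that choice is not given here, so 14 cannot be set against the 8.11%.

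Each gained region belonged to another gene, Vwf (centre at base 13571 from the start), Procr (-8730), Tfpi (11574), Plat (1482), Plau (-2264) and Plaur (7932). All 6 were also open in both stabilized cultures. The highest was that of Tfpi, with fold enrichments of 6.13 to 21.9 in the WT cultures. Of the 9 gene starts, 8 had an open region in some library and Vwf had none. The Procr start was open throughout, at 6.25 and 5.64 in acutely isolated ECs and 7.49 to 16.0 in WT cultures. The Plau start had no peak in acutely isolated ECs and was open in 5 of 6 WT cultures, at 6.98 to 12.7. The Nos3 start went the other way, at 10.6 and 10.4 in acutely isolated ECs and open in 4 of 6 WT cultures at 2.85 to 5.39. Its missing peaks were in WT replicates 2 and 5. The Thbd start was open in all libraries, at 10.9 in both acutely isolated and 4.92 to 8.40 in the WT libraries.

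**Figure D5:**
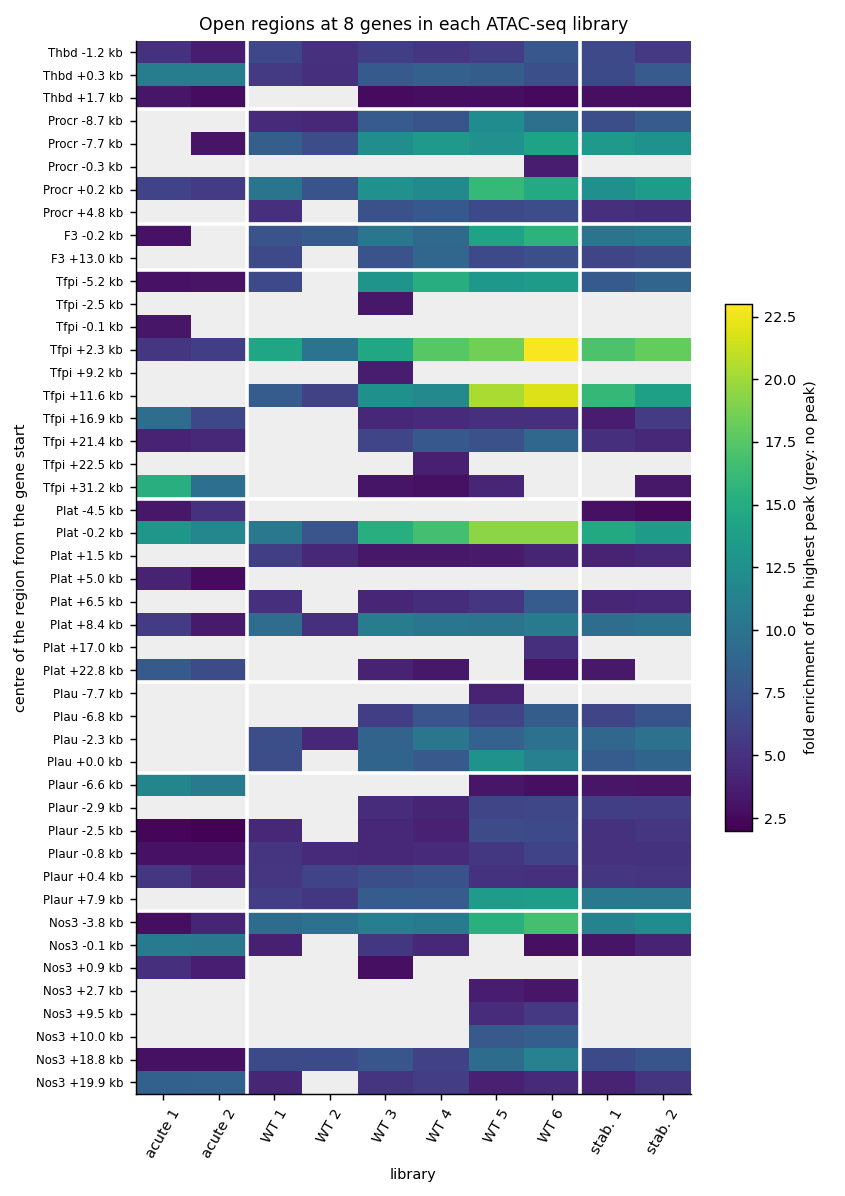
Fold enrichment of the highest peak in each open region (rows, by gene and by distance in kb from the gene start to the centre of the region) in each ATAC-seq library (columns), for the 8 genes other than Vwf; grey means that no peak passed the authors' filter. The F3 and Plau starts are brighter in culture than in acutely isolated ECs, and the Nos3 start is brighter in acutely isolated ECs.

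The genes whose levels ran most like those of the 9 were found among 11600 genes by the root mean square difference of log2(TPM + 1), each gene centred on its mean over the 14 RNA-seq libraries. Vwf ran closest to Pdgfb (difference 0.296), a growth factor that ECs use to recruit pericytes, and to Mecom (0.545), a transcription factor. Nos3 ran closest to Grap (0.358), an adaptor protein. Thbd ran closest to Ephb4 (0.21), with Ltbr next (0.252), and Procr to Ecscr (0.357), with Scarf1 next (0.462). Tfpi ran closest to Metap1 (0.287), Plau to Npm3 (0.486), Plaur to Slc16a3 (0.494) and F3 to Efhd1 (0.607). Plat had the most distant nearest gene, Manba (0.815). Of the first 2 genes for each of the 9, 8 of 18 stayed among the first 2 with a pseudocount of 0.1 and with scaled TPM, namely Pdgfb, Mecom, Grap, Ltbr, Scarf1, Metap1, Npm3 and Manba.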

How the data were processed

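Tables of 14 RNA-seq libraries and peak lists of 10 ATAC-seq libraries were used. The samples labelled as sorted from cerebrum alone were not analysed here. The authors quantified reads with Salmon 0.14.0 on GENCODE transcripts and deposited an estimated count and a TPM value per transcript. ATAC-seq reads were aligned by the authors to GRCm38 (HISAT2 2.1.0) and peaks called per library (MACS2 2.1.2), and the deposited peak lists hold a score, a fold enrichment (a ratio to the local background), a −log10 p and a −log10 q. Groups were taken from the sample labels, and isolation method, cycles and mouse lines from the labels and the study's methods.

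Here counts and TPM were summed over transcripts per gene symbol and counts rounded to whole numbers. edgeR 4.0.16 in R 4.3.3 (filterByExpr, TMM, glmQLFit and glmQLFTest) tested each comparison on its own libraries, with adjustment over all genes tested, and a term for isolation method by genotype was tested on the 8 cultures of 36 cycles. An SE was derived from the fold change and the F statistic. Peaks with a fold enrichment over 2 and a −log10 q over 2 were merged across libraries, with 1 base of overlap. Alternatives were DESeq2 1.42.0, other scaling, filters, library choices, a transcript length offset and a replicate block. Scaled TPM was added after the data had been seen. The procedure was tested on simulated data. Since a call needs a log2 fold change over 1 in size, smaller differences could not be called. On the simulated data part of the larger changes was missed too, in each comparison of 2 groups. A gene that was not called is therefore not shown to be equal.

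Depth was 24284843 to 94686456 estimated counts, so that the spread between libraries and not counting error sets the precision, and limits for a count of 0 cover counting error only. The 9 genes, the pathway lists and the marker lists were chosen with earlier results of these data known. Named were the 9 genes, 10 genes set beforehand, up to 3 called genes with the largest change per pathway list and comparison, the 2 genes most like each of the 9, and marker genes. F2rl3, F5, Serpine2, Lrp1, Cav1, Slc7a1 and Spr in culture and Cav1, Spr, Gucy1b1, Prkg1 and Pde5a before culture were named outside this rule, after their values were seen. Some genes counted in the pathway lists are not reported here by name. The coordinates of sequences are those of GRCm38.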

Additional observations from a re-analysis of the deposited data

Results flagged for a closer look

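The effect of stabilization differed between isolation methods for 6 of the 9 genes by the interaction term of edgeR, against 49.6% of 13356 genes tested. Method B minus method A, the log2 difference was 1.80 for Plat (adjusted p = 6.33e-05, edgeR), 0.62 for Nos3 (adjusted p = 0.00984), 0.44 for Thbd (adjusted p = 0.00525), 0.41 for Procr (adjusted p = 0.016), -0.75 for F3 (adjusted p = 0.0259) and -0.37 for Plau (adjusted p = 0.0469). Each genotype and method was 1 experiment of 2 wells, so that a difference between methods and a difference between experiments cannot be told apart. Plat kept an adjusted p under 0.05 without any 1 of the 8 libraries, with values from 1.64 to 1.88. Procr, F3 and Plau each lost it without 1 of several libraries, with adjusted p up to 0.0754, 0.0880 and 0.132. The lost cases were WT replicate 5 and stabilized replicates 2, 3 and 4 for Procr, WT replicates 2 and 5 and stabilized replicates 2 and 4 for F3, and WT replicates 1 and 6 and stabilized replicates 1, 2 and 3 for Plau. In the WT and stabilized cultures, 18 tests for a far value marked no library for the 9 genes. The groups of 2 were not tested, and since each experiment gave 2 wells with close values, such a test has little chance of marking a single library in these cultures.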

How the results depend on the processing

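Of the 9 genes, the calls of F3, Procr and Plaur in culture and of Vwf, Thbd, Nos3 and F3 against GFP-negative cells kept their direction and their side of the threshold under every alternative run. For culture the count of genes called higher or lower went to 3160 and 2825 with no TPM minimum, lower genes to 834 with wells summed, and higher genes to 2867 with WT replicates 3 and 4 alone. The count of the 9 genes called lower was 0 under library size scaling, the transcript length offset, the replicate block, summed wells, without the 150-cycle cultures and with WT replicates 1 and 2 alone, 4 with replicates 3 and 4 and 2 with replicates 5 and 6, and 0 to 1 with a library left out. Vwf was -1.34 with WT replicates 3 and 4 alone and -0.19 to 0.39 with a library left out. Plat was 0.24 under library size scaling, 1.31 with the replicate block, 0.36 without 150 cycles, 0.020 with summed wells, 1.31 with WT replicates 1 and 2 alone and -0.62 to 0.18 with a library left out.

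Against GFP-negative cells, 649 genes were higher with the length offset, 2980 were lower with no TPM minimum, and 2 of the 9 genes were then lower. With a library left out, 663 to 1662 genes were higher. Genes higher and lower after stabilization were 15 and 3 by DESeq2, 132 and 55 with the replicate block, 66 and 10 with isolation method as a term, 692 and 118 in method A and 138 and 36 in method B, where 1 of the 9 genes was higher. Procr reversed with the length offset (-0.00056), the block (-0.011) and in method A (-0.14), F3 with the block (0.14) and Nos3 with the block (-0.34), and Nos3 was -0.057 to 0.47 with a library left out. The interaction of Vwf was 0.0061 and that of Tfpi 0.096 under library size scaling. With a library left out they ranged from -0.26 to 0.053 and from -0.090 to 0.076, and that of Plaur from -0.059 to 0.17. Open regions gained were 3 and open in all 7 where a peak had to cover at least 50% of the region, and lost were 1 and open in all 8 under the stricter filter, and 6 to 14 were gained with a library left out. Of the 18 nearest genes, 8 were shared with a pseudocount of 0.1 and 10 with scaled TPM. The cause of these changes was not tested.

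The main fits did not pair libraries by replicate number. Deviations of same-numbered libraries from their group means correlated with r from 0.0568 to 0.575 for stabilized and WT cultures. The r was -0.0491 and 0.033 for culture, and 0.0995 for ECs and GFP-negative cells. With 2 libraries in each group, the last r is the same for both numbers by construction. It cannot settle whether ECs and GFP-negative cells were paired. With the block, 2113 and 1784 genes were higher and lower in culture and 1018 and 1054 in ECs.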
